A study of Arabidopsis thaliana with 16 samples.

Results

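Aliphatic glucosinolates are sulfur-rich defence compounds of *Arabidopsis thaliana* made from methionine. The 10 genes described here were chosen by name as steps of that pathway, with earlier results of these data known. They were taken out of 32982 gene names that could be used in the deposited tables. They are the regulators *MYB28* and *MYB29* and the enzyme genes *BCAT4*, *MAM1*, *MAM3*, *CYP79F1*, *CYP79F2*, *CYP83A1*, *UGT74C1* and *SOT17*. The tables hold *MAM1* and *MAM3* as 1 joined locus with summed reads, so that the 10 genes give 9 loci. RNA was measured in roots and shoots of 3-day-old dark-grown seedlings of the Col ecotype (wild type) and of the *cbp20* mutant, in which the gene *CBP20*, for the smaller of the 2 proteins of the nuclear cap-binding complex, is mutated and which is in the Col-0 background. Seedlings were kept in hydrocarbon-free air, and were then given for 4 h either the same air or air with 10 ppm ethylene. The 8 groups are thus Col root, Col shoot, *cbp20* root and *cbp20* shoot, each in air and in ethylene, with 2 libraries each and 16 in all. One mutant line was used, so that the allele and the line cannot be told apart.

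In this pathway methionine is first lengthened. *BCAT4*, an aminotransferase, starts this step, and the methylthioalkylmalate synthases *MAM1* and *MAM3* add the carbons. The cytochromes P450 *CYP79F1* and *CYP79F2* then turn the lengthened amino acids into aldoximes, which *CYP83A1* oxidizes. *UGT74C1* belongs to the glucosyltransferases that add glucose to the core, and *SOT17* is a sulfotransferase that completes it. *MYB28* and *MYB29* are R2R3-MYB transcription factors that activate the genes of this branch. Indole glucosinolates are made from tryptophan by a parallel set of enzymes under other MYB factors.

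Values are FPKM, which counts read fragments relative to transcript length and sequencing depth, and each group has a single pooled FPKM from its 2 libraries. No spread between libraries can be computed from these values, and the differences below are given with no replicate check and no p-value. The p-values in the authors' tables belong to the authors' own comparison and were not used. A locus was compared where it had at least 1 FPKM in one of the groups and was above 0 in both. A difference of at least 1.5-fold was counted, and the share of all compared loci past the same fold is given as the background. Whether a difference is larger than the spread between libraries is therefore not shown here.

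The labels were checked with *CBP20* itself, which lay between 23.8 and 35.8 FPKM in the 4 Col groups and between 0.509 and 2.14 FPKM in the 4 *cbp20* groups. The tissues were checked with 7 shoot marker genes (light-harvesting, Rubisco, photosystem and hook genes), whose summed level was 117 to 568 FPKM in roots and 13084 to 19185 FPKM in shoots. The 7 root marker genes summed to 717 to 1197 FPKM in roots and 225 to 318 FPKM in shoots, mostly through *CASP1*, which gave 638 of the 717 FPKM in Col roots in air. Of the root markers compared, 3 of 6 in Col in air, 6 of 7 in Col in ethylene, 4 of 7 in *cbp20* in air and 5 of 7 in *cbp20* in ethylene were at least 1.5-fold higher in roots than shoots. The shares of all loci were 27.2%, 30.1%, 27.8% and 30.9%, in the same order. *GL2* was lower in Col roots in air (2.18 and 4.13 FPKM), *SCR* was 18.4 and 16.6 FPKM, and the stem-cell niche gene *WOX5* was listed at 0 in Col shoots in air. All 7 shoot markers were at least 1.5-fold lower in roots in each of these comparisons, against 28.2%, 29.8%, 25.7% and 27.2% of all loci.

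The upstream sequences of 4 members are shown because their levels differ most clearly in pattern. *BCAT4*, *CYP83A1* and the joined *MAM1*/*MAM3* locus, of which *MAM1* is shown, were far higher in *cbp20* than in Col roots, and *SOT17* was not. Each sequence is the 250 bases before the RefSeq gene start in the TAIR10.1 assembly, written 5′ to 3′ on the strand of the gene, with matches to the motifs searched in capitals. The *MAM1* sequence lies at chr5:7702791-7703040 (plus strand) and that of *BCAT4* at chr3:6849583-6849832 (minus strand). That of *CYP83A1* lies at chr4:7992430-7992679 (minus strand) and that of *SOT17* at chr1:6398281-6398530 (plus strand).
MAM1: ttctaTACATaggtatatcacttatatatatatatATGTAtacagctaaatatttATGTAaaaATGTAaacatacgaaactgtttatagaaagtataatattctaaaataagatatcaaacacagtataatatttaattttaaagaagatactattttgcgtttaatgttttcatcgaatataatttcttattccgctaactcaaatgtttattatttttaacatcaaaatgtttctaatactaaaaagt
BCAT4: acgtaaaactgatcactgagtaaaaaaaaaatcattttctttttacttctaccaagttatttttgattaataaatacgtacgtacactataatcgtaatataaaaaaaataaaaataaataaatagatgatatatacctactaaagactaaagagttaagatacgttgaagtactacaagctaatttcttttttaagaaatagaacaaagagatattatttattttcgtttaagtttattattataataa
CYP83A1: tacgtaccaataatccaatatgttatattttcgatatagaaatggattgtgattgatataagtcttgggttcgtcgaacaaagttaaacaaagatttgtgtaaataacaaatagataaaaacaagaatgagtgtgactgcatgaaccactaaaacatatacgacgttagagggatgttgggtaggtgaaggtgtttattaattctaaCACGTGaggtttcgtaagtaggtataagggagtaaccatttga
SOT17: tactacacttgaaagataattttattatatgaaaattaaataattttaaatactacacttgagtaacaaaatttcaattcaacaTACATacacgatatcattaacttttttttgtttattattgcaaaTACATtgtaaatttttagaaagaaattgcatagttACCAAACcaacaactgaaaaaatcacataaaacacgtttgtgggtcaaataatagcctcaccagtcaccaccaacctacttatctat

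The motifs searched on both strands were CACGTG (the G-box), GCCGCC (the GCC box), TACAT (a core of EIN3 binding sites) and the MYB motifs ACCTAAC and ACCAAAC. None of these motifs contains another. TACAT, or ATGTA on the other strand, stood in 8 of the 10 members, against 52.0% of 27443 protein-coding genes, and the *MAM1* sequence holds it 4 times. Among the members CACGTG stood only before *CYP83A1*, beginning 43 bases before the gene start, against 6.49% of all genes. ACCAAAC stood only before *SOT17*, against 8.29%. GCCGCC and ACCTAAC stood in none of the 10 members, against 1.87% and 2.46% of all genes. The *BCAT4* sequence holds none of the motifs. A match is a match of letters and does not show that a factor binds there.

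Most members had low FPKM. Of the 9 loci, 7 had at least 1 FPKM in a group, and 7 stayed under 10 FPKM in every group. The shares of all loci that do so were not computed, so these counts do not set the members apart from other loci. Among all loci used with at least 1 FPKM in a group, the median there was 14.0 to 15.0 FPKM. The authors' tables mark 4 member loci in Col root, 4 in Col shoot, 2 in *cbp20* root and 2 in *cbp20* shoot as having too few alignments for a test. The 5 loci *MYB28*, *MAM1*/*MAM3*, *CYP83A1*, *BCAT4* and *UGT74C1* all had their highest level in *cbp20* roots in air. How many of all loci are highest in that group was not computed, so this count has no background beside it.

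Of the regulators, *MYB28* (AT5G61420, TAIR10 chr5:24689151-24691095) was measured in every group. Air and ethylene gave 1.28 and 1.39 FPKM in Col root, 4.02 and 2.17 FPKM in Col shoot, 7.18 and 3.90 FPKM in *cbp20* root, and 4.26 and 1.84 FPKM in *cbp20* shoot. The Col roots were thus the lowest pair, and both shoots and the *cbp20* roots were lower in ethylene than in air. *MYB29* (AT5G07690) was listed at 0 in all 8 groups, as was *MYB76*, its neighbour and close relative in the same stretch of joined transcripts. All 4 tables mark *MYB29* as having too few alignments, and no ratio was formed for it.

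Among the genes that lengthen the side chain, the joined *MAM1*/*MAM3* locus (AT5G23010 and AT5G23020, TAIR10 chr5:7703092-7721839) had the highest level of any member. It was 5.18 and 5.03 FPKM in Col root in air and ethylene, 1.96 and 1.07 FPKM in Col shoot, 59.9 and 38.3 FPKM in *cbp20* root, and 12.7 and 7.66 FPKM in *cbp20* shoot. All 4 *cbp20* values lay above all 4 Col values. The 2 genes are near copies, and how their reads divide between them is not known. *BCAT4* (AT3G19710) was 0.344 FPKM in Col root in air and listed at 0 in ethylene, and 1.32 and 0.0195 FPKM in Col shoot. In *cbp20* it was 8.31 and 1.97 FPKM in root and 2.68 and 1.20 FPKM in shoot. The *cbp20* roots in air stood above every other group.

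Of the P450 genes, *CYP83A1* (AT4G13770, TAIR10 chr4:7990485-7992311) was nearly absent from Col. It was 0.163 and 0.131 FPKM in Col root in air and ethylene, and 0.0325 FPKM and listed at 0 in Col shoot. In *cbp20* it was 4.92 and 1.54 FPKM in root and 1.37 and 0.743 FPKM in shoot, all above the highest Col value. *CYP79F1* (AT1G16410) was listed at 0 in the 4 Col groups. In *cbp20* it was 0.529 and 0.150 FPKM in root, and 0.785 FPKM and listed at 0 in shoot, so that it reached 1 FPKM in no group and was not compared. Its neighbour and near copy *CYP79F2* (AT1G16400) had the opposite order of genotypes in roots. It was 1.35 and 0.436 FPKM in Col root, 0.318 FPKM and listed at 0 in Col shoot, 0.348 and 0.211 FPKM in *cbp20* root, and 0.129 FPKM and listed at 0 in *cbp20* shoot. Reads shared between these near copies could move between them, and this was not tested.

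Of the genes that finish the core, *UGT74C1* (AT2G31790) was 1.27 and 0.749 FPKM in Col root in air and ethylene, 3.11 and 1.58 FPKM in Col shoot, 4.98 and 1.11 FPKM in *cbp20* root, and 3.92 and 2.07 FPKM in *cbp20* shoot. Ethylene was below air in each of these 4 pairs. *SOT17* (AT1G18590) did not share the pattern of the 5 members that were highest in *cbp20* roots in air. It was 15.1 and 14.1 FPKM in Col root, 10.9 and 8.96 FPKM in Col shoot, 13.8 and 11.5 FPKM in *cbp20* root, and only 2.38 and 0.980 FPKM in *cbp20* shoot. Its 2 *cbp20* shoot values lay below the other 6, which overlapped between the genotypes.

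**Figure D1:**
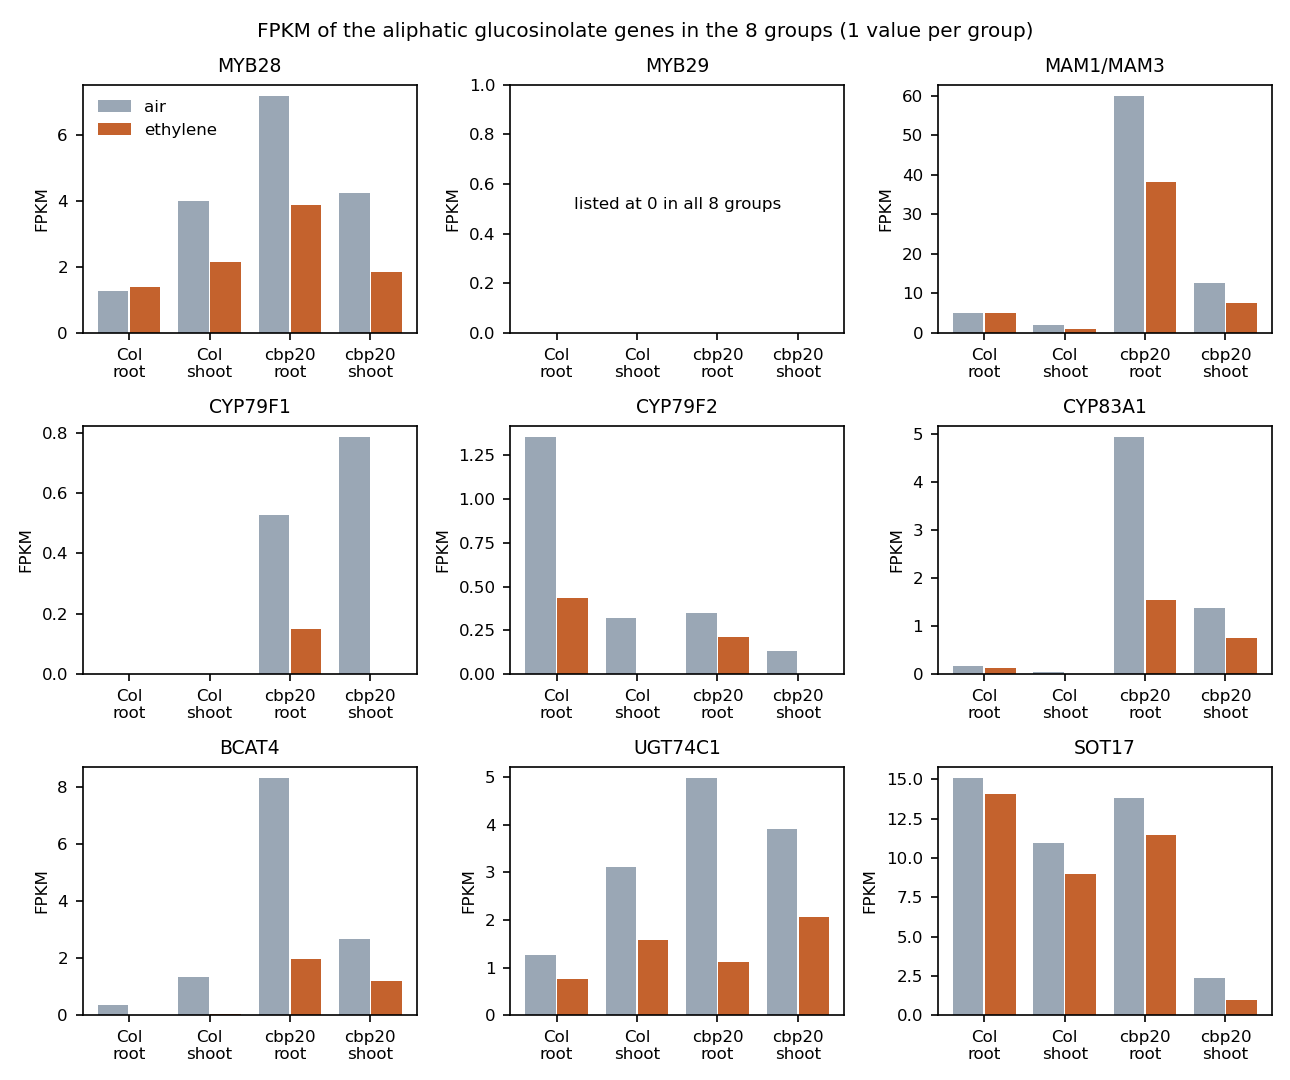
FPKM of the 9 member loci (1 panel each, with its own vertical axis from 0) in air (grey) and ethylene (orange) for the roots and shoots of Col and *cbp20*. Each bar is the single pooled value of a group, so there are no error bars. *MAM1*/*MAM3*, *BCAT4*, *CYP83A1*, *MYB28* and *UGT74C1* are highest in *cbp20* roots in air, and *SOT17* is lowest in *cbp20* shoots.

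The first comparison asked how the members respond to 4 h of ethylene in each tissue and genotype. The 4 tables share no group with each other. In all, 22 ratios of members could be formed, of which 21 were below air, 17 were at least 1.5-fold lower and 0 were at least 1.5-fold higher. The same loci recur in up to 4 tables, so the 22 ratios are not separate observations. Over all loci the median log2 ratio lay between -0.01 and 0.02. In Col root, Col shoot, *cbp20* root and *cbp20* shoot, 15%, 20.6%, 14.5% and 20.6% of all loci were at least 1.5-fold lower. The shares higher were 15.2%, 15%, 13.2% and 15%. No standard error can be given for any of the members' ratios.

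In Col roots 2 of the 5 members compared were at least 1.5-fold lower in ethylene, against 15% of all 17265 loci, and 0 were higher, against 15.2%. These were *CYP79F2*, 3.11-fold lower, and *UGT74C1*, 1.70-fold lower. *MYB28*, *MAM1*/*MAM3* and *SOT17* were within 1.5-fold, with log2 ratios of 0.12, -0.04 and -0.10. The median log2 ratio of the members was -0.10, beside 0.00 over all loci. With at least 1 FPKM required in both groups neither call remained, since *CYP79F2* and *UGT74C1* were below 1 FPKM in ethylene, and with a 2-fold minimum or a pseudocount of 1 FPKM 1 call remained.

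In Col shoots 4 of 5 members were at least 1.5-fold lower, against 20.6% of 17409 loci, and 0 were higher, against 15%, with a median log2 ratio of -0.89 beside -0.01 over all loci. *MYB28* was 1.86-fold lower, *MAM1*/*MAM3* 1.84-fold lower and *UGT74C1* 1.97-fold lower. *BCAT4* was 67.9-fold lower, a ratio set by the 0.0195 FPKM in ethylene, and its log2 ratio of -6.08 became -1.19 with a pseudocount of 1 FPKM. *SOT17* was 1.22-fold lower and so within 1.5-fold. With a 2-fold minimum 1 member, *BCAT4*, was lower.

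In *cbp20* roots 5 of 6 members were at least 1.5-fold lower, against 14.5% of 17298 loci, and 0 were higher, against 13.2%, with a median log2 ratio of -1.28 beside 0.02 over all loci. *UGT74C1* was 4.47-fold lower, *BCAT4* 4.21-fold lower and *CYP83A1* 3.20-fold lower. *MYB28* was 1.84-fold lower and *MAM1*/*MAM3* 1.56-fold lower. *SOT17* was 1.20-fold lower. With a 2-fold minimum 3 members were lower. The ethylene levels of *MYB28*, *MAM1*/*MAM3*, *CYP83A1* and *BCAT4* in *cbp20* roots were still above their levels in Col roots in air.

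In *cbp20* shoots 6 of 6 members were at least 1.5-fold lower, against 20.6% of 17270 loci, and 0 were higher, against 15%, with a median log2 ratio of -1.04 beside 0.00 over all loci. The ratios were close together, from 1.66-fold lower for *MAM1*/*MAM3* to 2.43-fold lower for *SOT17*. *MYB28* was 2.31-fold, *BCAT4* 2.23-fold, *UGT74C1* 1.89-fold and *CYP83A1* 1.84-fold lower. With a 2-fold minimum 3 members were lower. None of these log2 ratios lay outside the 5th to 95th percentile of all loci in this table. Below the 5th percentile elsewhere were *CYP79F2* in Col root (-1.64, beside -1.28) and *BCAT4* in Col shoot (-6.08, beside -1.80). In *cbp20* root *UGT74C1* (-2.16), *BCAT4* (-2.07) and *CYP83A1* (-1.68) lay below it (-1.27).

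Most members are at levels where ratios scatter more than among all loci. Among loci whose higher value was 1 to 10 FPKM, a background chosen after the data were seen, the share at least 1.5-fold lower in ethylene was 20.5% in Col root, 27.7% in Col shoot, 22% in *cbp20* root and 28.2% in *cbp20* shoot. The members' counts beside these were 2 of 5, 4 of 5, 5 of 6 and 6 of 6. These counts also take in members above 10 FPKM, so the sets are not alike. *SOT17* was above it in Col root, Col shoot and *cbp20* root, and *MAM1*/*MAM3* in *cbp20* root and shoot.

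**Figure D2:**
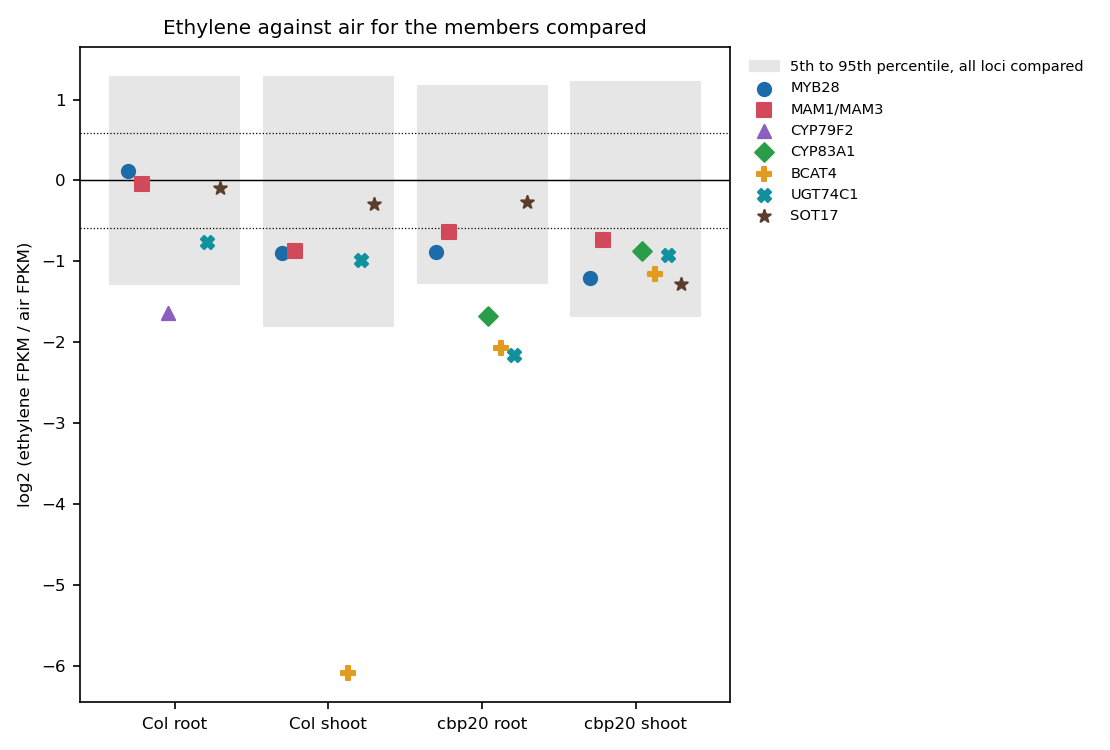
Log2 ratio of ethylene to air FPKM (vertical axis) for each member compared, in the 4 tables (horizontal axis). Grey boxes span the 5th to 95th percentile of all loci compared, dotted lines mark 1.5-fold and each symbol is 1 locus with no error. The members lie at or below 0 except *MYB28* in Col roots at 0.12, and *BCAT4* in Col shoots is at -6.08.

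The responses were then set against each other, as differences of the log2 ratios. Between *cbp20* and Col roots the difference was -1.00 for *MYB28*, -0.60 for *MAM1*/*MAM3*, -1.40 for *UGT74C1* and -0.17 for *SOT17*. The same difference over 16671 loci ran from -1.16 at the 5th to 1.03 at the 95th percentile, so that only *UGT74C1* lay outside this range. Between *cbp20* and Col shoots the differences of *MYB28* (-0.31), *MAM1*/*MAM3* (0.14), *UGT74C1* (0.06) and *SOT17* (-0.99) lay inside it, and *BCAT4* (4.93) lay outside through its low value in Col. Between roots and shoots none of the 4 members in Col or the 6 in *cbp20* lay outside the range of all loci. These differences were not tested, and the responses are not shown to differ between genotypes or tissues.

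The second comparison asked how the mutant differs from Col. Here the tables had been normalized separately, so levels stand side by side across tables. The *cbp20* air values also serve as the denominators of the ethylene ratios above, so that the 2 comparisons are not independent.

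In roots in air 5 of the 7 members compared were at least 1.5-fold higher in *cbp20*, against 15.3% of 17309 loci. *CYP83A1* was 30.3-fold, *BCAT4* 24.1-fold, *MAM1*/*MAM3* 11.6-fold, *MYB28* 5.59-fold and *UGT74C1* 3.92-fold higher. *CYP79F2* was 3.89-fold lower, and 10.7% of loci were at least 1.5-fold lower. *SOT17* was within 1.5-fold. The median log2 ratio of the members was 2.48 beside 0.04 over all loci. The ratios of *CYP83A1* and *BCAT4* rest on Col values under 1 FPKM, and with a pseudocount of 1 FPKM their log2 ratios of 4.92 and 4.59 became 2.35 and 2.79. With at least 1 FPKM required in both groups, or with loci marked as having too few alignments left out, 3 of 4 members were higher.

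In roots in ethylene 3 of 5 members were at least 1.5-fold higher in *cbp20*, against 15.2% of 17252 loci, and 0 were at least 1.5-fold lower, against 12.1%. These were *CYP83A1*, 11.7-fold higher (3.55 on the log2 scale, and 1.17 with a pseudocount of 1 FPKM), *MAM1*/*MAM3*, 7.62-fold higher, and *MYB28*, 2.79-fold higher. *UGT74C1* was 1.49-fold higher and *SOT17* 1.23-fold lower. *BCAT4* was listed at 0 in Col and 1.97 FPKM in *cbp20*, for which no ratio was formed.

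In shoots in air 3 of 6 members were at least 1.5-fold higher in *cbp20*, against 13.3% of 17466 loci. *MAM1*/*MAM3* was 6.48-fold and *BCAT4* 2.02-fold higher. *CYP83A1* was 42.0-fold higher on a Col value of 0.0325 FPKM, and its log2 ratio of 5.39 became 1.20 with a pseudocount of 1 FPKM. *MYB28* (1.06-fold) and *UGT74C1* (1.26-fold) were within 1.5-fold. *SOT17* was 4.60-fold lower, and 15.7% of loci were at least 1.5-fold lower.

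In shoots in ethylene 2 of 5 members were at least 1.5-fold higher in *cbp20*, against 15.1% of 17153 loci. These were *MAM1*/*MAM3*, 7.16-fold higher, and *BCAT4*, 61.7-fold higher (5.95 on the log2 scale, and 1.11 with a pseudocount of 1 FPKM). *SOT17* was 9.14-fold lower, and 17.4% of loci were at least 1.5-fold lower. *MAM1*/*MAM3* was past 1.5-fold higher in all 4 of these comparisons. *CYP83A1* and *BCAT4* were so in the 3 in which a ratio could be formed, and each was listed at 0 in Col in the remaining one, where *CYP83A1* was 0.743 FPKM in *cbp20* shoots and *BCAT4* 1.97 FPKM in *cbp20* roots. *MYB28* was past 1.5-fold higher in roots and within 1.5-fold in shoots. In shoots in ethylene 1 member was higher with at least 1 FPKM required in both groups, and 1 without the joined locus. Among loci whose higher value was 1 to 10 FPKM the shares at least 1.5-fold higher were 23.7% and 21.9% in roots and 20.3% and 22.4% in shoots, in air and ethylene. *MAM1*/*MAM3* and *SOT17* lay above 10 FPKM in these comparisons, except in shoots in ethylene.

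Markers of both tissues also differed between the genotypes. Of the 7 shoot markers 5 were at least 1.5-fold higher in *cbp20* than in Col roots in air and 7 in ethylene, and their sum was 224 and 117 FPKM in Col against 483 and 568 FPKM in *cbp20*. Of the 7 root markers 1, *WOX5*, was at least 1.5-fold higher in air, at 2.82 FPKM in Col and 22.5 FPKM in *cbp20* roots, and in ethylene 1 was higher and 1 lower. In shoots 1 of 7 shoot markers was at least 1.5-fold higher in *cbp20* in air and 4 in ethylene, and their sum was 15174 and 13084 FPKM in Col against 18631 and 19185 FPKM in *cbp20*. *WOX5* was listed at 0 and was 0.0423 FPKM in Col shoots in air and ethylene, and 6.94 and 0.941 FPKM in *cbp20* shoots. Of the 6 root markers compared in shoots 1, *RHD6*, was at least 1.5-fold higher in *cbp20*. It was 6.08 FPKM in Col and 9.71 FPKM in *cbp20* in air, and 2.72 and 7.68 FPKM in ethylene. Over all loci the shares higher were 15.3% and 15.2% in roots and 13.3% and 15.1% in shoots, in air and ethylene. In roots in ethylene 12.1% were lower. The part of these markers in the members' differences was not tested. *MAM1*/*MAM3*, *CYP83A1*, *BCAT4* and *MYB28* were higher in *cbp20* roots than in *cbp20* shoots in air and in ethylene. *UGT74C1* was within 1.5-fold between these tissues in air and 1.86-fold lower in roots in ethylene. In Col in air *MYB28*, *BCAT4* and *UGT74C1* were at least 1.5-fold lower in roots than in shoots, and *MAM1*/*MAM3* was higher. Whether these orders bear on the marker differences was not tested. In whole tissues, fewer cells that express a gene and less RNA per cell cannot be told apart.

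The remaining genes of the pathway were compared in the same way. Of 7 other genes of side-chain elongation 4 were at least 1.5-fold higher in *cbp20* roots in air, the same number as in ethylene. *IPMI1* and *IPMI2*, small subunits of an isopropylmalate isomerase, were 1.65 and 1.42 FPKM in Col and 18.8 and 23.8 FPKM in *cbp20*. *BAT5*, a plastid carrier of the keto acids, was 3.31 FPKM in Col and 7.41 FPKM in *cbp20*. The isopropylmalate dehydrogenase gene *IMD1*, named after its values were seen, was 4.76 FPKM in Col and 61.1 FPKM in *cbp20*. The share of all loci at least 1.5-fold higher was 15.3% in air and 15.2% in ethylene. The other 3 elongation genes were within 1.5-fold in air, which were the aminotransferase gene *BCAT3* (26.5 and 27.0 FPKM), and *IIL1* (119 and 159 FPKM) and *IMD3* (16.4 and 23.9 FPKM), which also serve leucine synthesis.

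Of 8 other genes of core structure formation and sulfate donor supply, some particular to the aliphatic branch and some used by both branches, 1 was at least 1.5-fold higher in *cbp20* roots in air and 0 were lower. The higher one was the glutathione transferase gene *GSTF11* of the aliphatic branch, at 0.235 FPKM in Col and 1.17 FPKM in *cbp20*. *UGT74B1* (56.5 and 49.2 FPKM) and *SOT18* (29.9 and 28.3 FPKM) were within 1.5-fold. Of 9 loci of the indole branch 1 was higher and 1 lower, against 15.3% and 10.7% of all loci. The higher one was *CYP81F2*, which modifies indole glucosinolates, at 5.84 FPKM in Col and 27.7 FPKM in *cbp20*. In roots in ethylene *CYP81F2* had the opposite order, at 17.2 FPKM in Col and 10.2 FPKM in *cbp20*. In roots in air *MYB34*, an activator of the indole branch, was 59.2 and 52.8 FPKM, and *CYP79B2*, the entry enzyme of that branch, 67.8 and 68.0 FPKM. The median log2 ratio in roots in air was 1.16 for the other elongation genes, 0.05 for the other core and sulfate donor genes and -0.05 for the indole branch. In shoots in air 4 of 7 other elongation genes were at least 1.5-fold higher in *cbp20*, against 13.3% of all loci, while 4 of 7 other core and sulfate donor genes and 6 of 9 indole loci were at least 1.5-fold lower, against 15.7%. In roots in ethylene 4 of 9 indole loci were lower in *cbp20* and 0 higher, against 12.1% and 15.2%, with a median log2 ratio of -0.58. In shoots in ethylene 5 of 9 were lower and 1 higher, against 17.4% and 15.1%, with a median of -0.94.

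**Figure D3:**
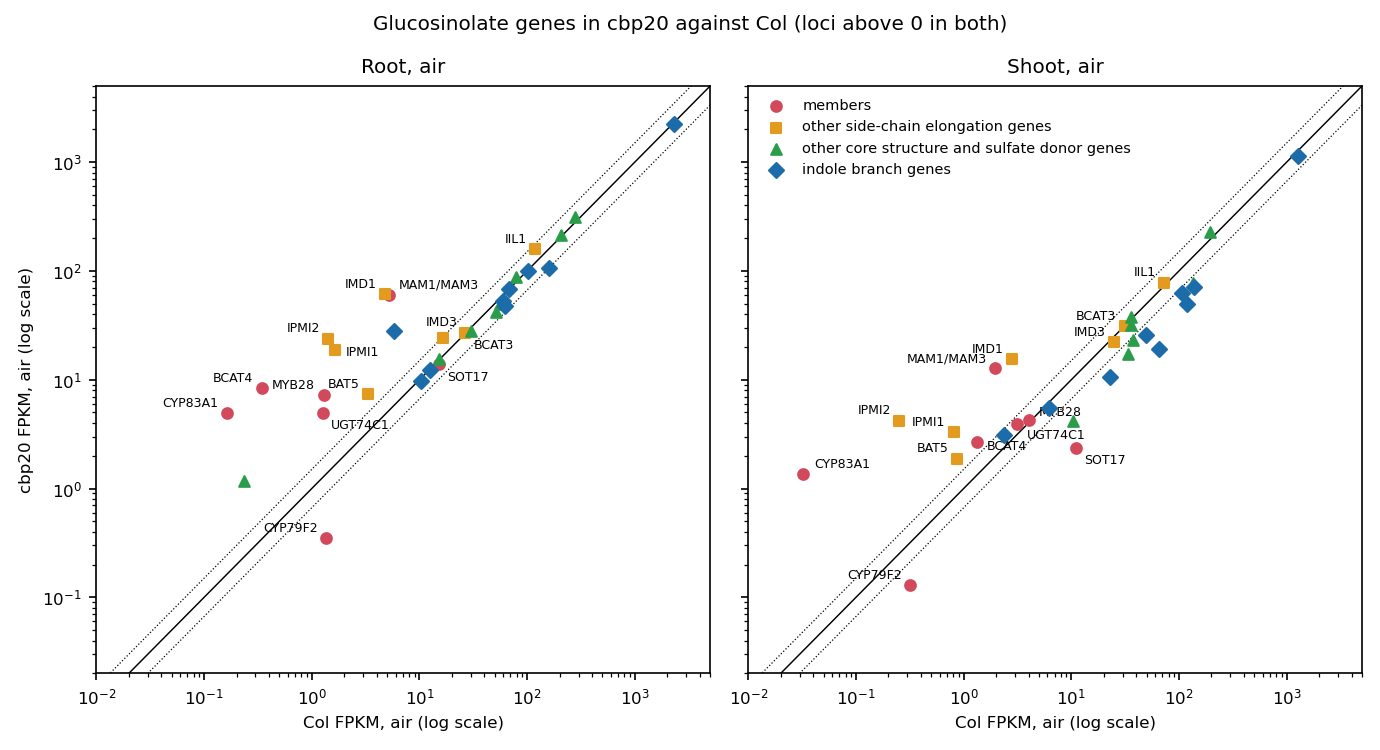
FPKM in *cbp20* (vertical axis) against Col (horizontal axis), both on log scales, in roots (left) and shoots (right) in air, for loci above 0 in both. The line marks equal levels and the dotted lines 1.5-fold, and each symbol is 1 locus with a single value per group. In roots 5 members and 4 other elongation genes lie above the dotted lines, while most core and indole genes lie near the line of equal levels.

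Ethylene was also set beside air in those lists. Of the other elongation genes 2 of 7 in Col root, 0 of 4 in Col shoot, 4 of 7 in *cbp20* root and 3 of 7 in *cbp20* shoot were at least 1.5-fold lower, and none was higher. *BAT5* in Col root went from 3.31 FPKM in air to 0.532 FPKM in ethylene, and *IPMI1* in *cbp20* shoot from 3.27 to 0.746 FPKM. *IPMI2* in Col root went from 1.42 to 0.371 FPKM. Of the indole loci 7 of 9 in Col shoot and 6 of 9 in *cbp20* shoot were at least 1.5-fold lower, and *MYB34* in Col shoot went from 106 to 24.5 FPKM. In roots 2 of 9 indole loci in Col and 4 of 9 in *cbp20* were lower, and 2 in Col were higher. Of the other core and sulfate donor genes 3 of 7 were lower in Col root, 1 of 7 in Col shoot, 2 of 8 in *cbp20* root and 2 of 7 in *cbp20* shoot. *SOT18* went from 29.9 to 11.8 FPKM in Col root and was 1.72-fold higher with ethylene in *cbp20* shoot. *UGT74B1* went from 23.2 to 7.30 FPKM in *cbp20* shoot, and *GSTF11* from 1.17 to 0.0537 FPKM in *cbp20* root. The shares of all loci at least 1.5-fold lower were 15% in Col root, 20.6% in Col shoot, 14.5% in *cbp20* root and 20.6% in *cbp20* shoot. The shares higher were 15.2%, 15%, 13.2% and 15%, in the same order.

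Of 7 other regulators compared with ethylene, 1 was at least 1.5-fold higher and 1 lower in Col root. The counts were 1 and 3 in Col shoot, 0 and 0 in *cbp20* root and 1 and 3 in *cbp20* shoot. Over all loci the shares were 15.2% and 15%, 15% and 20.6%, 13.2% and 14.5%, and 15% and 20.6%, in the same order. Of the 3 with the largest ratios, *MYC2*, a partner of the MYB factors, went from 87.4 to 36.8 FPKM in Col shoot. In *cbp20* shoot *MYC4* went from 9.89 to 5.22 FPKM and *IQD1*, a calmodulin-binding protein gene, from 11.5 to 3.57 FPKM. In *cbp20* roots in air 1 of 7 regulators was at least 1.5-fold higher than in Col and 1 lower, against 15.3% and 10.7% of all loci. Of the side-chain modification genes *AOP1* went from 18.7 to 3.12 FPKM with ethylene in *cbp20* shoot, and *FMO GS-OX4* from 70.3 to 24.8 FPKM in Col shoot. *FMO GS-OX5* was 22.5 and 26.5 FPKM in Col shoot. Of the 3 modification genes compared, 1 was at least 1.5-fold lower with ethylene in Col root, 2 in Col shoot and 2 in *cbp20* shoot. In *cbp20* root 0 were lower, and 0 were higher in any table. Of the transport and breakdown genes 0 of 7 were at least 1.5-fold higher with ethylene and 1 lower in Col root. In Col shoot 1 of 7 was higher and 2 lower. In *cbp20* root 2 of 8 were higher and 0 lower, and in *cbp20* shoot 2 of 10 were higher and 3 lower. The transporter gene *GTR1* went from 49.0 to 16.1 FPKM in *cbp20* shoot. *ESP* (1.06 and 0.167 FPKM) and the myrosinase gene *TGG5* (0.251 and 1.47 FPKM) were near the minimum there.

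The third comparison set roots beside shoots, again across separately normalized tables. The root libraries were all run on lane 6. Of the 2 libraries of each shoot group 1 was run on lane 5 and 1 on lane 6, and since the deposited values pool the 2 libraries, no comparison within a lane could be made. In Col in air 2 of 6 members were at least 1.5-fold higher in roots, against 27.2% of 17575 loci, and 3 were lower, against 28.2%. *MAM1*/*MAM3* (2.64-fold) and *CYP79F2* (4.26-fold) were higher, and *MYB28* (3.13-fold), *BCAT4* (3.84-fold) and *UGT74C1* (2.45-fold) lower. In Col in ethylene 2 of 4 were higher (30.1% of loci) and 2 lower (29.8%). Without the joined locus 1 was higher in air and 1 in ethylene. *MYB28*, 1.55-fold lower there, turned to a log2 ratio of 0.04 when the groups were scaled to equal sums over loci that name a gene.

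In *cbp20* in air 5 of 6 members were at least 1.5-fold higher in roots, against 27.8% of loci, and 0 lower, against 25.7%. *SOT17* was 5.81-fold, *MAM1*/*MAM3* 4.70-fold, *CYP83A1* 3.61-fold, *BCAT4* 3.10-fold and *MYB28* 1.69-fold higher. In ethylene 5 of 6 were higher (30.9% of loci) and 1, *UGT74C1*, was 1.86-fold lower (27.2%). *SOT17* was 11.7-fold higher in *cbp20* roots than shoots there. With a pseudocount of 1 FPKM, or at least 1 FPKM in both groups, 3 members were higher in ethylene. *MYB28* thus had its lower level in roots in Col and in shoots in *cbp20*.

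How alike the members were was described by correlating log2(FPKM + 1) over the 8 groups with the mean of the standardized members. The 8 groups come from 4 separately normalized tables, and air and ethylene of a table share its scaling. Pearson's r with that mean, which includes the gene itself, was 0.93 for *BCAT4*, 0.90 for *CYP83A1*, 0.86 for *MYB28*, 0.82 for *MAM1*/*MAM3*, 0.79 for *CYP79F1* and 0.70 for *UGT74C1*. It was 0.19 for *SOT17* and 0.11 for *CYP79F2*. Between pairs, *CYP83A1* and *MAM1*/*MAM3* had an r of 0.93 and *MYB28* and *BCAT4* one of 0.90.

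Of 13409 other loci that varied enough to be compared, 22 had an r of at least 0.9 with the mean of the members. The 8 most alike were AT1G30455 (0.97), *AMY2* (0.97), AT2G23110 (0.96), AT5G10210 (0.96), AT4G05095 (0.95), *CYP71B12* (0.95), *scpl31* (0.95) and AT4G24380 (0.94). AT2G23110 was 4.63 and 3.66 FPKM in Col root in air and ethylene, 8.02 and 3.24 FPKM in Col shoot, 40.1 and 19.2 FPKM in *cbp20* root and 19.96 and 4.35 FPKM in *cbp20* shoot. AT4G05095 was listed at 0 in the 4 Col groups and was 5.73 and 0.890 FPKM in *cbp20* root. These loci were picked for their likeness over 8 values, and the likeness is a description.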

How the data were processed

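By the study's methods and the submitters' processing notes, poly(A) RNA was made into directional libraries, reads were aligned to TAIR10 (TopHat2 2.0.9), and Cuffdiff 2.2.1 estimated the levels. The authors deposited 4 tables of FPKM, with 1 pooled value each for air and ethylene and no value per library. The tables also hold the authors' own fold changes and p-values, which were not used. The sources used here do not give library depths.

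Of 35814 loci in each table, 1729 name no gene and 2952 share their gene name with another locus. The remaining 31133 (86.9%) were used, of which 1632 join several genes. Loci without a gene name hold 72.6% to 86.2% of the summed FPKM. Log2 ratios of the deposited FPKM were formed with no pseudocount, for loci with at least 1 FPKM in one group and above 0 in both, and counted from 1.5-fold, the minima of the study's methods. No test of a difference was made, since 1 value per group leaves no spread and the p-values of the authors' comparison were set aside.

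The members and the 6 other gene lists were chosen with earlier results of these data known. Named are all members, *CBP20*, the 3 genes of each list with the largest ethylene ratio, and the 8 loci most like the members, among loci with a range of at least 1 on the log2(FPKM + 1) scale. *MYB76*, *BCAT3*, *IIL1*, *IMD1*, *IMD3* and the markers *WOX5*, *CASP1*, *GL2*, *SCR* and *RHD6* were named after their values were seen. *BZO1* stands at several loci and was not used. Gene spans and upstream sequences are from RefSeq (TAIR10.1), and all 23417 single-gene loci compared overlap the RefSeq gene of the same name. Alternatives were pseudocounts of 0.1 and 1, a 2-fold minimum, other FPKM minima, 2 scalings and other sets of loci. Python 3.11.15, pandas 2.3.3 and numpy 2.4.6 were used.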

Additional observations from a re-analysis of the deposited data

How the results depend on the processing

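No paired analysis was possible because each table holds 1 pooled value per group, and for the same reason no library could be left out. Of the counts of members and the median differences of their responses, 131 stayed within 1.5-fold under an alternative, and 17, all of them counts, did not. A 2-fold minimum lowered the members lower in ethylene from 2 to 1 in Col root, from 4 to 1 in Col shoot, from 5 to 3 in *cbp20* root and from 6 to 3 in *cbp20* shoot, and those higher in root than shoot in Col in ethylene from 2 to 1. A pseudocount of 1 gave 1 lower in Col root with ethylene, and 3 in place of 5 higher in root in *cbp20* in ethylene. At least 1 FPKM in both groups gave 0 lower in Col root with ethylene, 1 in place of 2 higher in root in Col in air, 3 in place of 5 in *cbp20* in ethylene, and for *cbp20* against Col 3 in place of 5 higher in root in air and 1 in place of 2 in shoot in ethylene. Without joined loci, and so without *MAM1*/*MAM3*, 1 in place of 2 was higher in root than shoot in Col in air, 1 in place of 2 in ethylene, and 1 in place of 2 in *cbp20* against Col in shoot in ethylene. Leaving out loci with too few alignments, an alternative chosen after seeing the data, gave 1 in place of 2 higher in root in Col in air and 3 in place of 5 in *cbp20* against Col in root in air.

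Of the members' ratios 669 held, 30 moved and 1 reversed, *MYB28* in root against shoot of Col in ethylene, from -0.63 to 0.037. Alternatives that change only the fold, the FPKM minimum or the set of loci leave a member's ratio as it is. Under these a ratio could only hold. With a pseudocount of 1 FPKM 16 ratios moved and 51 held, and with 0.1 FPKM 5 moved and 62 held. All 67 held when centred on the median ratio. Scaling to equal sums over loci that name a gene moved 9, reversed 1 and left 57. This scaling shifted the median log2 ratio of all loci by up to 0.78. The share of calls that were higher went with it from 50.3% to 20.5% for ethylene in Col root, 42.0% to 24.0% in Col shoot, 47.5% to 67.6% in *cbp20* root and 42.2% to 63.7% in *cbp20* shoot. For root against shoot it went from 49.1% to 78.8% in Col in air, 50.2% to 75.5% in Col in ethylene, 52.0% to 73.3% in *cbp20* in air and 53.2% to 70.9% in *cbp20* in ethylene. For *cbp20* against Col it went from 59.0% to 16.9% in root in air, 45.9% to 31.4% in shoot in air and 46.6% to 73.8% in shoot in ethylene. Centring on the median ratio moved no share by over 10 points. The cause of these changes was not tested, beyond the loci each alternative leaves out. Levels under 1 FPKM limit the ratios of *CYP79F1*, *CYP79F2*, *CYP83A1* and *BCAT4* in Col.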
